A study of Mus musculus with 12 samples.

Results

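Transforming growth factor beta (TGF-beta) genes were followed in mouse articular chondrocytes kept as pellets, small 3-dimensional aggregates in which these cells move towards hypertrophy. The members were the 3 ligands Tgfb1, Tgfb2 and Tgfb3, the receptors Tgfbr1, Tgfbr2 and Tgfbr3, the latent binding proteins Ltbp1, Ltbp2 and Ltbp3, and Tgfbi, a secreted matrix protein named for its induction by TGF-beta. They were chosen by name, with earlier results of these data known, and make up 10 of the 23575 genes in the RNA-seq tables. Each gene was represented by its RefSeq transcript with the highest count, and its DNA methylation by the CpG cytosines in the gene and its promoter that were covered in all 6 libraries of enhanced reduced representation bisulfite sequencing (ERRBS), 667 of 724670 such cytosines. ERRBS reads methylation at single bases in CpG-dense DNA cut by the enzyme MspI.

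All groups were C57BL/6J chondrocytes from femoral heads and tibial plateaus of pups aged 5 to 6 days. The cells were expanded in monolayer with serum and then pelleted in the same medium plus ascorbic acid and ITS, and no genotype or drug differed between groups. Pellets were harvested at Week 1 (day 7) or Week 3 (day 21), with 3 RNA and 3 DNA libraries per week, 12 in all. The comparison of the weeks bears on which genes, and which CpG methylation, change as cultured chondrocytes become hypertrophic. Whether a replicate is an animal or a culture of its own is not in the labels, so p-values measure only the spread between these libraries.

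The RNA libraries held 14361717 to 19774665 gene counts, and median ERRBS coverage at the shared cytosines ran from 17 to 66 reads. Of 10 chondrocyte markers, 4 were higher and 0 lower at Week 3, and their summed level was 18281 to 33588 CPM (counts scaled to the library total) in Week 1 libraries and 35054 to 38285 CPM in Week 3 libraries. Week 1 replicate 2 was the low library. All 8 hypertrophy markers were higher, with a sum of 4273 to 5703 CPM at Week 1 and 21502 to 27264 CPM at Week 3. Markers of other cell types were also detected. Of 10 macrophage markers 5 were lower (sum 52.4 to 117 CPM, then 17.4 to 64.2), of 7 fibroblast markers 3 were higher and 1 lower (14263 to 15271, then 35974 to 42341), and of 6 smooth muscle markers 3 were higher (31.7 to 43.7, then 114 to 162). Of 3 tested endothelial markers 2 were lower (10.3 to 12.8, then 7.14 to 8.57). None of 6 adipocyte markers was called (57.2 to 217, then 25 to 118), and replicate 2 was the highest in both weeks. The fibroblast sum was nearly all Col1a1, Col1a2 and Col3a1, with means of 6838, 22487 and 9185 CPM at Week 3. Thy1 was the third fibroblast marker called higher besides Col1a1 and Col1a2, Tnxb fell from 12.1 to 6.35 CPM, and Dpt was not called. The smooth muscle sum was mostly Acta2 and Tagln, at 90.6 and 37.4 CPM at Week 3, and Myh11, Des and Mcam were not called. No listed marker was at 0 in all libraries. The macrophage and adipocyte sums overlapped between the weeks, and the other sums did not. The part of the cell types in the members' changes was not tested. The data are from bulk samples, so fewer cells of a type and less RNA per cell cannot be told apart.

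TGF-beta is secreted as an inactive dimer held by its own propeptide. Latent binding proteins couple this complex to the extracellular matrix, and integrins, proteases or mechanical force release the ligand. Free ligand binds a pair of kinases, the type II receptor and then the type I receptor, which phosphorylates SMAD2 and SMAD3, while the type III receptor betaglycan presents ligand to them. In cartilage the pathway is known to hold chondrocytes back from terminal hypertrophy.

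The ligand genes were higher at Week 3, and so were Ltbp1 and Ltbp2 of the latency genes, while Ltbp3 was not called. The kinase receptors changed little. In edgeR's quasi-likelihood test with Benjamini-Hochberg adjustment over all genes and a threshold of 0.05, 5 of the 10 members rose, 2 fell and 3 were not called. Among all 14323 tested genes 37.4% were called, 19.7% higher and 17.8% lower. The median log2 change of the members was 0.33, beside -0.01 for all tested genes. The libraries of the weeks did not overlap, with Week 3 higher, in 6 members, and in the same sense in 25.9% of all tested genes. They did not overlap, with Week 3 lower, in 2 members and in 25.5% of all tested genes.

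**Figure D1:**
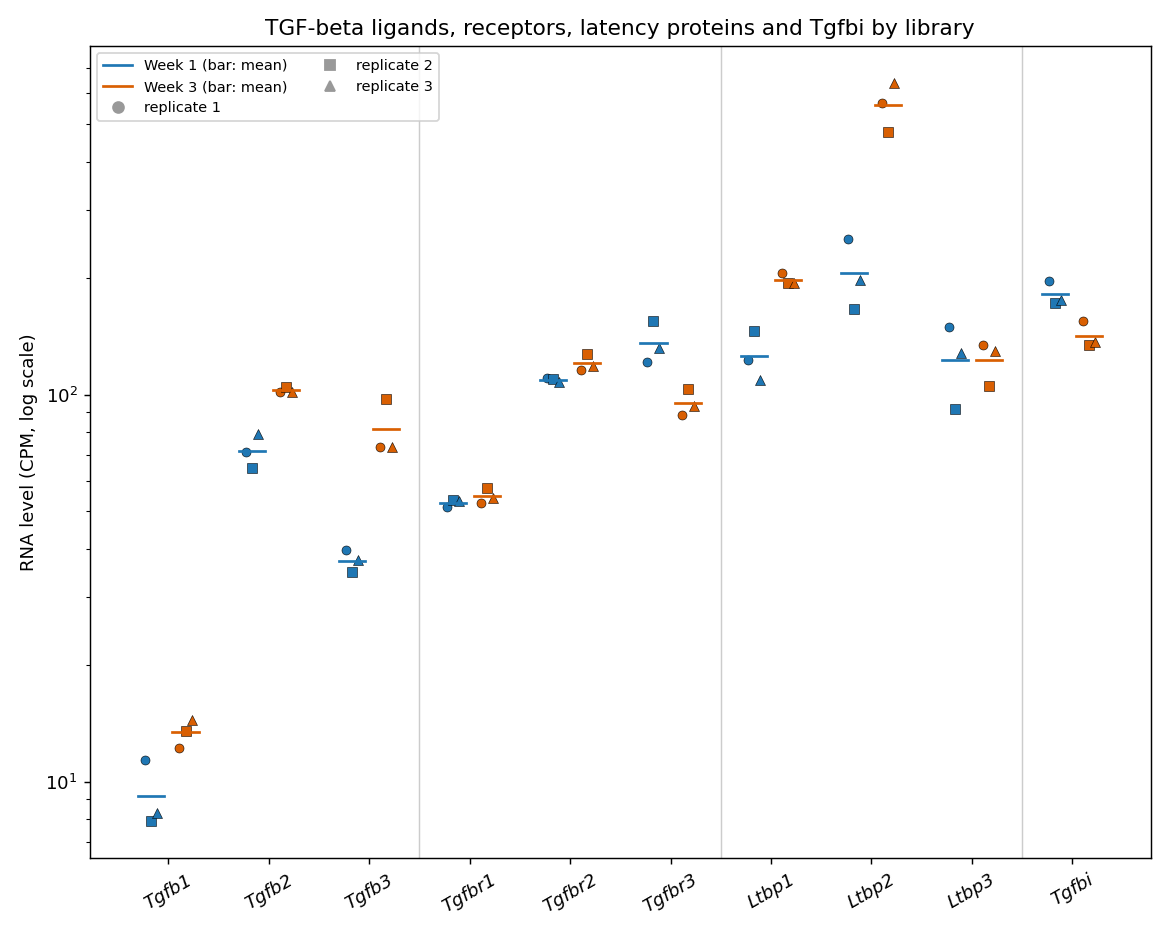
RNA level (CPM, log scale) of the 10 members in each of the 6 RNA-seq libraries, with blue for Week 1, orange for Week 3, a bar at the mean and a symbol shape per replicate number. Ltbp2 and Tgfb3 show the widest gaps between the weeks, and the symbols of Tgfbr1 and Ltbp3 overlap.

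Tgfb3 had the largest rise of the ligands. Its level was 39.6, 34.9 and 37.3 CPM in Week 1 replicates 1, 2 and 3, and 73.1, 97.7 and 73.4 CPM in Week 3 replicates 1, 2 and 3. Every Week 3 library lay above every Week 1 library, and Week 3 replicate 2 was the highest. The change was 2.19-fold (log2 change 1.13 ± 0.12, SE; adjusted p = 0.000161, edgeR). The gene lies on chromosome 12, chr12:86056743-86079041 in mm10 (GRCm38), on the minus strand.

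Tgfb2 (chr1:186622792-186705989, minus strand) was at 71.2, 64.7 and 79.1 CPM at Week 1 and at 101.7, 104.8 and 101.8 CPM at Week 3. The Week 3 values lay close together and all above the Week 1 values. The log2 change was 0.52 ± 0.07 (SE; adjusted p = 0.000481, edgeR). Tgfb1 (chr7:25687002-25705077, plus strand) was the lowest ligand, with 11.4, 7.89 and 8.30 CPM at Week 1 and 12.2, 13.5 and 14.5 CPM at Week 3. The weeks did not overlap, but Week 1 replicate 1 came near the Week 3 libraries. Its log2 change was 0.55 ± 0.14 (SE; adjusted p = 0.0147, edgeR). Leaving out Week 1 replicate 3 or Week 3 replicate 3 ended this call (adjusted p = 0.0631 and 0.0540).

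The 2 kinase receptors stayed near their Week 1 levels. Tgfbr1, the type I receptor (chr4:47353222-47414924, plus strand), was at 51.2, 53.5 and 53.0 CPM at Week 1 and at 52.5, 57.5 and 53.9 CPM at Week 3. The weeks overlapped, and the log2 change was 0.06 ± 0.06 (SE; adjusted p = 0.511, edgeR). Tgfbr2, the type II receptor that binds ligand (chr9:116087695-116175363, minus strand), was at 110.3, 109.6 and 107.7 CPM at Week 1 and at 116.0, 127.5 and 118.6 CPM at Week 3. All Week 3 libraries were higher, by a small margin, with a log2 change of 0.15 ± 0.06 (SE) that did not pass (adjusted p = 0.0628, edgeR). With the replicate number as a block, Tgfbr2 passed at the same size (log2 change 0.14, adjusted p = 0.0447, edgeR).

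Tgfbr3, which encodes betaglycan (chr5:107106567-107289629, minus strand), went the other way. It was at 121.7, 155.0 and 131.8 CPM at Week 1 and at 88.8, 103.6 and 93.4 CPM at Week 3. No Week 3 library reached the lowest Week 1 library. The log2 change was -0.51 ± 0.09 (SE; adjusted p = 0.00258, edgeR), and replicate 2 was the highest library in each week.

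Ltbp2 had the largest change of all members. Its protein binds fibrillin microfibrils and, unlike the other latent binding proteins, is known not to bind latent TGF-beta. Its level was 253.1, 166.4 and 198.0 CPM at Week 1 and 565.3, 476.7 and 639.2 CPM at Week 3. The weeks were far apart, with the lowest Week 3 library well above the highest Week 1 library. The rise was 2.72-fold (log2 change 1.44 ± 0.17, SE; adjusted p = 0.00108, edgeR). The gene lies at chr12:84783212-84876491 on the minus strand, and 690 of its exon bases overlap the antisense gene D030025P21Rik. That gene went from 6.91 ± 2.5 to 16.1 ± 4.42 CPM (SD, n = 3). The library protocol marks no strand, so reads in the overlap cannot be told apart.

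Ltbp1 (chr17:75005529-75392512, plus strand), which ties latent TGF-beta to fibronectin and fibrillin, rose with a narrower margin. It was at 122.7, 146.0 and 108.9 CPM at Week 1 and at 206.0, 193.9 and 194.0 CPM at Week 3, with no overlap. The log2 change was 0.65 ± 0.10 (SE; adjusted p = 0.000864, edgeR). The gene has a long and a short form with separate starts, but their count rows shared nearly all reads, 16113 and 16106 over the 6 libraries, so the forms could not be compared.

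Ltbp3 (chr19:5740900-5758532, plus strand), another carrier of latent TGF-beta, showed no consistent shift. It was at 149.4, 91.9 and 128.4 CPM at Week 1 and at 134.2, 105.1 and 129.9 CPM at Week 3. The weeks overlapped throughout and replicate 2 was the lowest library in both. The means were 123.2 ± 29.1 and 123.1 ± 15.7 CPM (SD, n = 3; adjusted p = 0.995, edgeR), and its SE of 0.19 was the widest among the members.

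Tgfbi (chr13:56609586-56639359, plus strand), whose protein binds collagens and integrins, fell by a modest and even amount. It was at 196.9, 172.7 and 175.8 CPM at Week 1 and at 154.6, 134.5 and 136.9 CPM at Week 3, without overlap. The ratios between libraries of the same number were nearly equal, with log2 values of -0.35, -0.36 and -0.36. The fitted log2 change was -0.36 ± 0.07 (SE; adjusted p = 0.00385, edgeR).

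**Figure D2:**
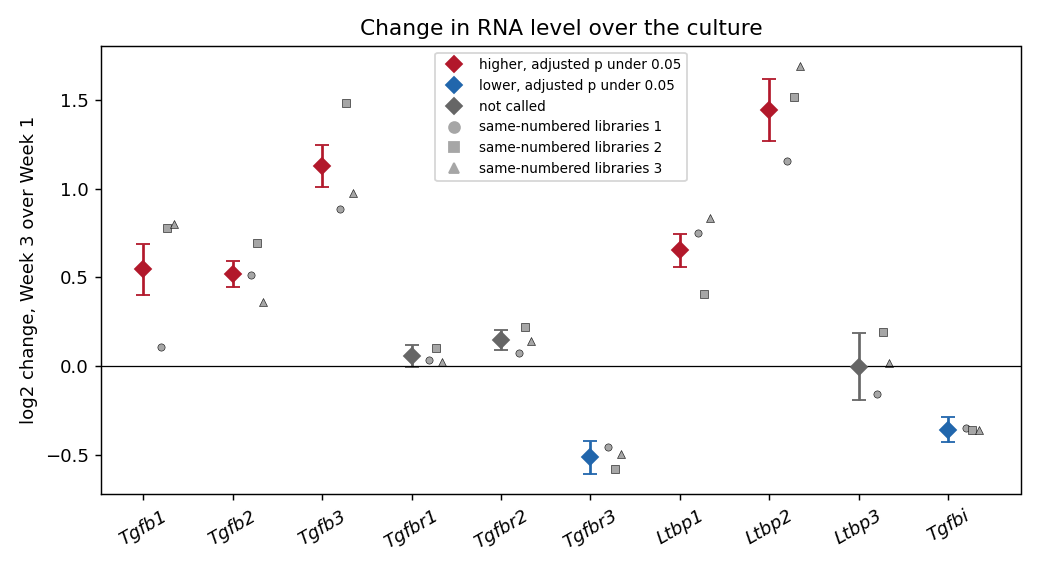
Log2 change in RNA level, Week 3 over Week 1, with diamonds for the edgeR estimate, bars for its SE and small grey symbols for the ratio of same-numbered libraries. Tgfb3 and Ltbp2 lie above 0.8 in all 3 ratios, Tgfbr3 and Tgfbi lie below 0 in all 3, and Ltbp3 lies on both sides of 0.

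When CPM was divided by the length of the counted transcript in kilobases (kb), levels could be set side by side between genes. At Week 1 Tgfb2 was the leading ligand, at 14.0 ± 1.41 CPM per kb, ahead of Tgfb3 at 11 ± 0.70 and Tgfb1 at 4.22 ± 0.87 (SD, n = 3). At Week 3 Tgfb3 led at 24.0 ± 4.17 CPM per kb, ahead of Tgfb2 at 20.1 ± 0.34 and Tgfb1 at 6.17 ± 0.51. Tgfb2 was above Tgfb3 in each Week 1 library and below it in each Week 3 library. As a share of the summed ligand level, Tgfb3 went from 37.7 ± 1.22% to 47.6 ± 3.80% and Tgfb2 from 47.9 ± 2.97% to 40.1 ± 2.86%, while the sum went from 29.2 ± 2.32 to 50.3 ± 4.60 CPM per kb. These shares are descriptions and rest on the annotated lengths.

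The receptor sum was nearly level, at 54.3 ± 2.98 and 50.4 ± 2.95 CPM per kb. Within it the share of Tgfbr3 went from 41.1% to 31.0% and that of Tgfbr2 from 42.1% to 50.1%. In level, Tgfbr3 was called lower and Tgfbr2 was not called. Tgfbr3 and Tgfbr2 were within their spread of each other at Week 1, at 22.4 ± 2.80 and 22.8 ± 0.28 CPM per kb, and stood at 15.6 ± 1.24 and 25.2 ± 1.26 at Week 3. The ratio of Tgfbr3 to Tgfbr2 was 0.868, 1.11 and 0.962 in the Week 1 libraries and 0.602, 0.639 and 0.619 in the Week 3 libraries. The Week 3 ratios were all lower and close together. Tgfbr1 was the lowest receptor in both weeks, at 9.14 ± 0.21 and 9.50 ± 0.45 CPM per kb.

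Among the latent binding proteins, with Ltbp4 added, Ltbp2 held 40.9 ± 2.61% of the summed level at Week 1 and 61.6 ± 2.46% at Week 3. Ltbp3 went from 31.1 ± 3.75% to 17.2 ± 0.90% while its own mean level was 23.7 CPM per kb in both weeks, and Ltbp1 held 22.8 ± 6.03% and 19.5 ± 2.12%, which overlap. Ltbp4 fell from 20.8 ± 3.52 to 12.2 ± 0.71 CPM (log2 change -0.77 ± 0.12, SE; adjusted p = 0.00111, edgeR), so its share went from 5.17 ± 0.16% to 1.68 ± 0.09%. The family sum per ligand sum, with Ltbp2 included, was 2.86, 2.48 and 2.41 at Week 1 and 3.0, 2.2 and 3.1 at Week 3. These ratios overlapped. As Ltbp2 is known not to bind latent TGF-beta and held 61.6% of the family sum at Week 3, they do not describe the carriers of latent TGF-beta alone. Among all tested genes ranked per kb, Ltbp2 stood at percentile 85.7 at Week 1 and 96.1 at Week 3, and Tgfbi at 94.9 and 92.7.

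**Figure D3:**
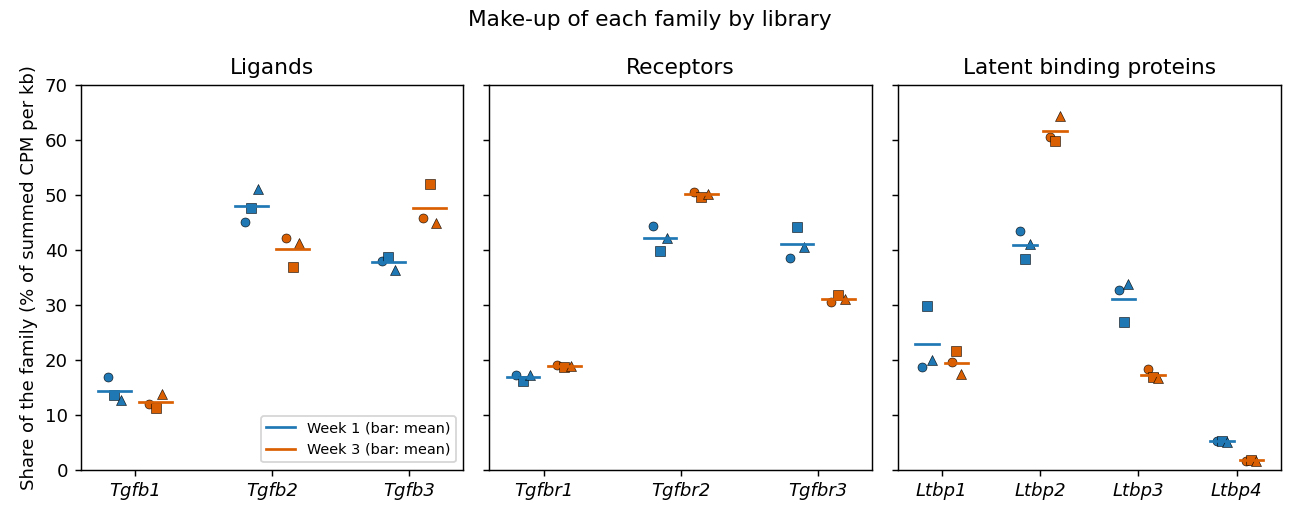
Share of each family's summed CPM per kb held by each gene, by library (blue Week 1, orange Week 3, bar at the mean, symbol shapes for replicate numbers as in the plot of levels). Tgfb2 and Tgfb3 trade places between the weeks, and Ltbp2 reaches 61.6% of the latent binding proteins. At Week 3 the share of Tgfbr3 is lower and that of Tgfbr2 higher.

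Profiles across the 6 libraries were compared by Pearson correlation of log2 CPM over 11070 genes. The genes most like Tgfb3 were C2cd5 (r = 0.999), Cnn2 (0.999) and Plaat1 (0.998). Those most like Tgfbi were Rhbdl3 (0.994), Arhgef26 (0.992) and Tomm6os (0.992). Cnn2 went from 47.8 ± 3.58 to 113.1 ± 18.2 CPM, with replicate 2 of Week 3 on top as for Tgfb3, and Rhbdl3 from 7.68 ± 1.15 to 3.68 ± 0.80 CPM. With 6 points that share libraries and the difference between weeks, such values are a ranking among many genes and no test.

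Other genes of the pathway were grouped in lists by role. Of 73 such genes 71 could be tested, and 25 were higher, 11 lower and 35 not called, with a median log2 change of 0.12. Each list's counts stand beside 37.4% of all tested genes called, 19.7% higher and 17.8% lower, and some genes are in 2 lists. Of 22 tested genes of latency and activation, 10 rose and 3 fell (median 0.28). Bmp1, a protease that cleaves Ltbp1 and thereby frees the latent complex from the matrix, was at 44.6, 42.1 and 39.8 CPM at Week 1 and at 96.3, 110.2 and 96.1 CPM at Week 3. The weeks stood far apart (log2 change 1.26 ± 0.07, SE; adjusted p = 2.7e-06, edgeR). Emilin1, which restrains processing of the TGF-beta precursor, rose by 0.65 on the log2 scale to 696.6 ± 23.5 CPM, and Fbn2, a microfibril protein, rose by 0.51 to 215.0 ± 11.8 CPM. Itgb3, the beta subunit of an integrin that can activate latent TGF-beta, went from 90.6 ± 0.73 to 55.9 ± 3.52 CPM (log2 change -0.70, adjusted p = 2.9e-05, edgeR).

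Of 12 accessory and related receptor genes, 4 rose and 1 fell (median 0.13). Bambi, a receptor without kinase that blocks TGF-beta signalling, was at 18.1, 17.7 and 15.8 CPM at Week 1 and at 62.1, 66.8 and 62.8 CPM at Week 3. It had the largest fold of the pathway genes called, 3.71-fold (log2 change 1.89 ± 0.08, SE; adjusted p = 1.8e-07, edgeR), and no library of one week came near the other. The coreceptor Nrp1 rose by 0.48 and Vasn, a TGF-beta binding membrane protein, by 0.34 on the log2 scale. Dab2, an endocytic adaptor that links receptors to SMADs, fell by 0.27 (adjusted p = 0.0151, edgeR), and this call ended when Week 1 replicate 1 (0.0712) or 3 (0.0711), or Week 3 replicate 3 (0.0547), was left out.

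The SMADs and their regulators split, with 4 of 18 higher and 5 lower (median -0.02). Smad7, the inhibitory SMAD of the pathway, fell from 32.5 ± 1.04 to 23.0 ± 1.18 CPM (log2 change -0.49, adjusted p = 0.00072, edgeR). Tgif1, a SMAD corepressor, fell by 0.74, from 124.4 ± 4.75 to 74.6 ± 12.4 CPM. Among the related ubiquitin ligases, Wwp1 fell by 0.39 and Wwp2 rose by 0.40, from 475.8 ± 31.9 to 629.1 ± 15.5 CPM. Smad3 had a log2 change of 0.28 (adjusted p = 0.0177, edgeR), and without Week 3 replicate 2 its adjusted p was 0.0557.

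Of 4 matrix proteins that bind TGF-beta, 3 rose (median 0.65). Aspn rose 2.41-fold, from 107.0 ± 14.0 to 258.0 ± 100.5 CPM, with Week 3 replicate 2 at 373.8 CPM against 207.6 and 192.8 CPM in the other two. Fmod rose 2.01-fold, with Week 1 replicate 2 at 380.1 CPM against 723.2 and 716.4 CPM. Dcn rose by 0.29, and Bgn had a log2 change of 0.16 (adjusted p = 0.194, edgeR). The calls of Aspn, Fmod and Dcn were each lost when some libraries were left out. Aspn then had adjusted p = 0.0895, 0.0911 and 0.0581 without Week 1 replicate 1, 2 or 3. Fmod had 0.0572, 0.109 and 0.0589 without Week 3 replicate 1, 2 or 3, and Dcn had 0.0591 without Week 1 replicate 1 and 0.0742 and 0.0778 without Week 3 replicate 1 or 3 (edgeR).

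Of 15 tested early target genes, 5 rose and 4 fell (median 0.11). These counts include the member Ltbp2, and Bambi, Smad7, Pmepa1, Tgif1 and Skil, which were already counted in the lists above. Ccn2, a secreted matricellular protein, was at 1124 ± 248 and 1214 ± 229 CPM (SD, n = 3; adjusted p = 0.705, edgeR). Pmepa1, a target and feedback inhibitor, rose by 0.42, while Tsc22d1 fell from 474.6 ± 6.00 to 255.7 ± 13.5 CPM (log2 change -0.89, adjusted p = 3.9e-06, edgeR). Targets thus stood on both sides of 0 at the same harvest. Of 6 genes of the TAK1 branch, which passes the signal on without SMADs, 2 rose and 0 fell (median 0.09). Xiap rose by 0.28, and Tab1 had a log2 change of 0.25 (adjusted p = 0.0420, edgeR) whose call ended with DESeq2, with no filter on low counts, and when any library except Week 1 replicate 1 was left out (adjusted p up to 0.103). Traf6 and Map3k7, the TAK1 kinase itself, were not called, at -0.16 and 0.08 on the log2 scale.

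**Figure D4:**
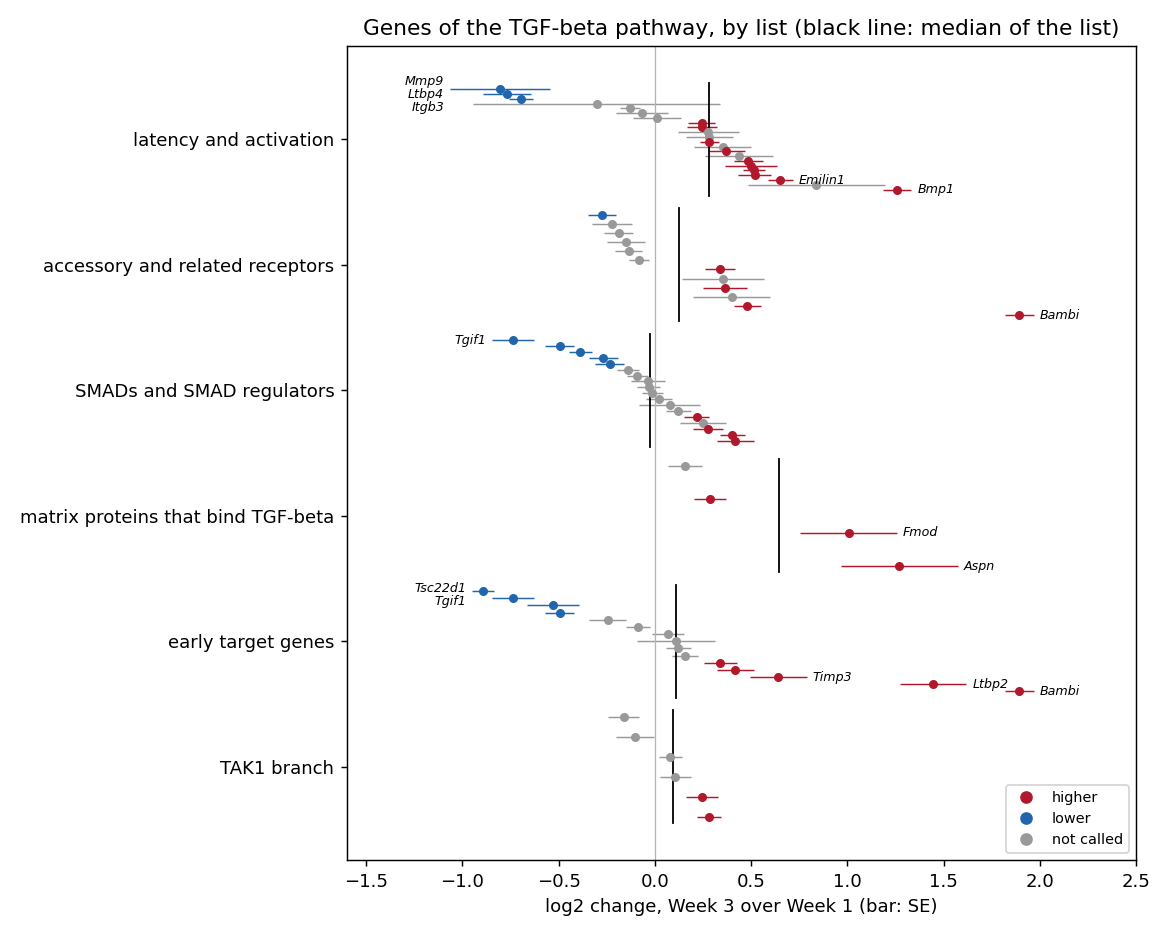
Log2 change, Week 3 over Week 1, of every tested gene of the pathway lists (points, with SE bars; red higher, blue lower, grey not called), with a black line at each list's median and names for called changes over 0.6 in size. Bambi stands at 1.89, Bmp1 at 1.26 and Tsc22d1 at -0.89, and the median of the SMAD list lies at -0.02.

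In the members with at least 3 shared promoter cytosines, which leaves out Ltbp3 and Tgfbi, mean promoter methylation was under 5% in both weeks. The 250 bases before the Tgfb1 start (chr7:25686752-25687001, GRCm38, plus strand) and the upstream part of the same window at the long Ltbp1 start (chr17:75005279-75005479, GRCm38, plus strand) are shown because their RNA rose while the CpGs measured there were near 0%. The letters were read from the RefSeq promoter table, in which 8 of the 10 members were found. Capitals mark CpGs measured in all 6 libraries, and each line reads 5′ to 3′.
Tgfb1 promoter: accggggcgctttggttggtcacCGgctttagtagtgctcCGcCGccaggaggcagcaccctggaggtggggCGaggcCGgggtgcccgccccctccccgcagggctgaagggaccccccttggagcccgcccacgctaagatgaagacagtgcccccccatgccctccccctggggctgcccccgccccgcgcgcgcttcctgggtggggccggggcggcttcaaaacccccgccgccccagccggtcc
Ltbp1 promoter: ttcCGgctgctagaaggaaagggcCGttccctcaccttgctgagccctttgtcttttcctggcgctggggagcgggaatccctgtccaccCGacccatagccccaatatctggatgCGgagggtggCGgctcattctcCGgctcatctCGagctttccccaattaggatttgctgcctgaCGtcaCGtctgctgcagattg

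The Tgfb1 window held 21 CpGs, of which 5 were measured, and 75.2% of its bases were G or C. The GC box letters GGGCGG occurred 5 times in it, counted on both strands, and at least once in 32.7% of 32851 RefSeq promoter windows of the same length. In the Ltbp1 window 10 of 12 CpGs were measured. It held the cyclic AMP response element letters TGACGTCA, 73 bases before the start, which 1.55% of all such windows contain. Mean methylation of the measured cytosines was 0.27% at Week 1 and 0.32% at Week 3 in the Tgfb1 window, and 0.62% and 0.26% in the Ltbp1 window. A letter match describes the sequence and says nothing of a factor.

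No promoter, gene body or site of the members was called. A promoter was the stretch from 1000 bases before to 500 bases after a start, and the gene body the rest of the gene. In a logistic model across libraries with Benjamini-Hochberg adjustment, 0 of 13791 promoters, 0 of 12718 gene bodies and 0 of 724670 sites of the whole genome passed 0.05. At an unadjusted p under 0.05 stood 1022 promoters (7.41%), 803 gene bodies (6.31%) and 38395 sites (5.3%), and 23 of the 667 member sites (3.45%). The smallest adjusted p of a member site was 0.86. Mean coverage per cytosine in the members' regions ran from 12 to 82.7 reads per library.

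By distance from the start, 169 of 170 member cytosines in promoters had a mean methylation under 10%, and so had 212 of 221 that lay 500 to 2499 bases past the start. Farther inside the genes 180 of 276 cytosines were over 60% and 15 under 10%, with means of 67.8% at Week 1 and 67.2% at Week 3. Low promoters were common to the genome, since 90.0% of all promoters measured were under 10%. The median gene body of the genome stood at 62.2%, with a lower quartile of 30.1%. Gene bodies include the 500 to 2499 base stretch, so these values are not on the measure of the 67.8%. As whole bodies, Tgfb1, Tgfb2, Tgfb3 and Ltbp3 lay under that lower quartile in both weeks. Only Tgfbr3 and Tgfbi lay above the median. All 9 member cytosines not under 10% in the 500 to 2499 base stretch lay in Ltbp2. Its 16 cytosines there had means of 17.5% and 13.8%.

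**Figure D5:**
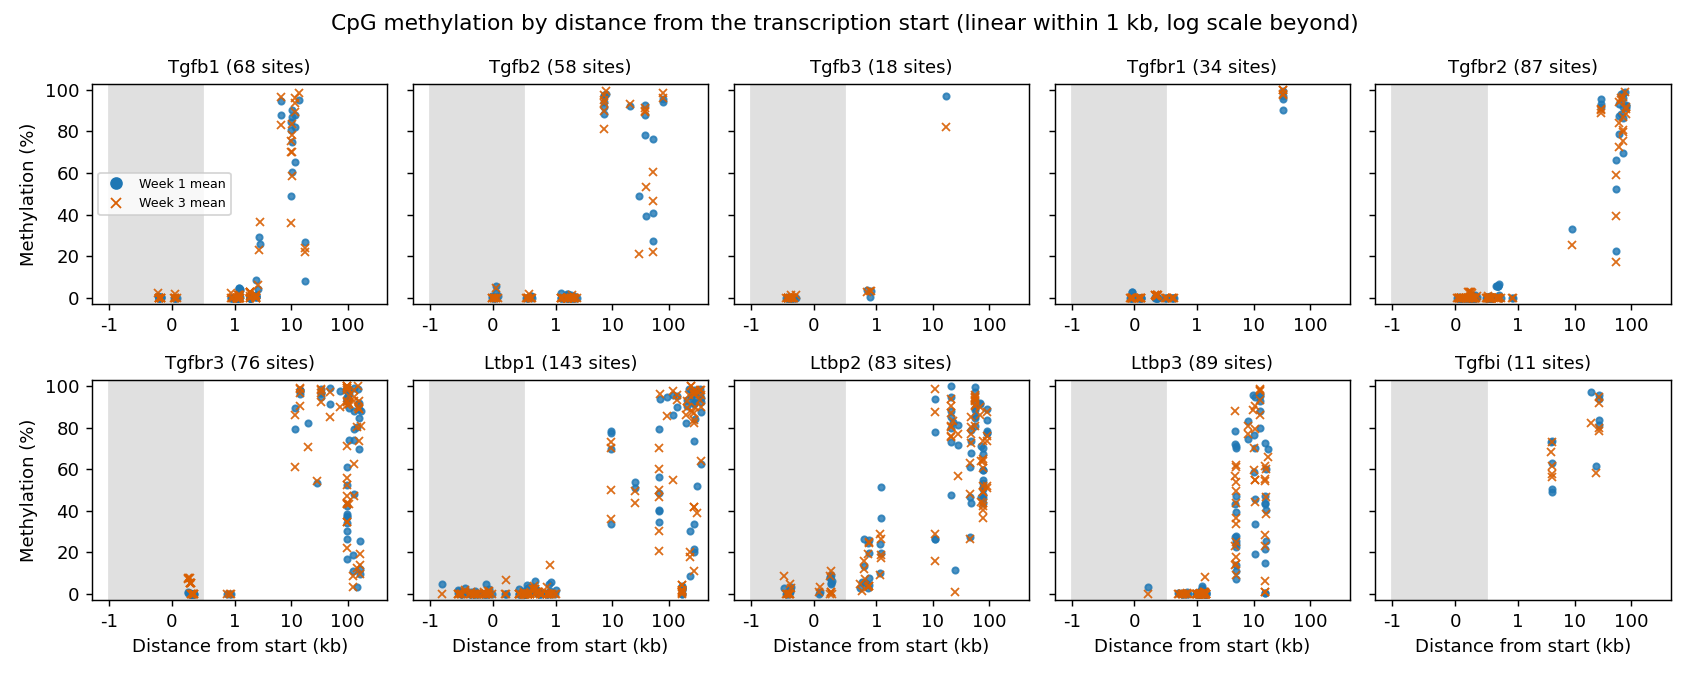
Methylation (%) of each shared cytosine of each member against distance from the transcription start in kb, on a linear scale within 1 kb and a log scale beyond, with blue dots for the Week 1 mean, orange crosses for the Week 3 mean and the promoter window shaded. Nearly all cytosines in the shaded windows lie under 10%, those far inside the genes mostly over 60%, and Tgfbi has 11 cytosines, none near its start.

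The members whose RNA rose had promoter means under 5% in both weeks. Over 14 cytosines the Tgfb3 promoter was at 0.05 ± 0.08% and 0.21 ± 0.18% (SD, n = 3), and over 13 cytosines the Tgfb1 promoter was at 0.16 ± 0.14% and 0.34 ± 0.60%. The Tgfb2 promoter (8 cytosines) was at 1.28 ± 1.49% and 0.57 ± 0.69%, the Ltbp2 promoter (17) at 3.12 ± 1.67% and 2.48 ± 1.53%, and the promoter of the long Ltbp1 form (40) at 0.70 ± 0.25% and 0.36 ± 0.55%. None of these differences was called (adjusted p from 0.699 to 0.984, logistic model). The start of the short Ltbp1 form (8) was at 2.2 ± 3.4% and 1.89 ± 2.15%. There Week 1 replicate 1 was at 6.11% against 0.387% and 0%, and without it the difference went from -0.28 to 1.69 points. The receptors Tgfbr1 and Tgfbr2 were as low, at 0.31 ± 0.46% and 0.45 ± 0.78% (24 cytosines) and at 0.11 ± 0.12% and 0.39 ± 0.68% (37 cytosines). The Ltbp3 promoter had 1 shared cytosine and the Tgfbi promoter 0, too few to test.

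At the Tgfbr3 promoter 1 library set the mean. Over 16 cytosines it was at 0.24%, 0.15% and 0% in Week 1 replicates 1, 2 and 3 and at 0%, 8.65% and 1.85% in Week 3 replicates 1, 2 and 3. Week 3 replicate 2 stood alone. In it the 9 cytosines 249 to 298 bases past the start were each at 15.4% of 13 reads, and the other 7 at 0%. The other Week 3 libraries lay within 2 points of Week 1. Cytosines on 1 read are not independent, so the 0% values allow, from the deepest single cytosine (19 and 35 reads), up to 15.8% in Week 1 replicate 3 and 8.57% in Week 3 replicate 1, counting error only. The difference of 3.37 points had an unadjusted p of 0.0500 (adjusted p = 0.658, logistic model; exact permutation p = 0.4, two-sided, where 0.1 is the smallest the design allows), and it was 0.794 points without Week 3 replicate 2.

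Gene bodies gave no call either. The Ltbp2 body was at 56.8 ± 2.06% at Week 1 and 55.1 ± 1.60% at Week 3 over 66 cytosines (adjusted p = 0.813, exact permutation p = 0.4). The Tgfbi body was at 74.6 ± 2.28% and 72.9 ± 3.21% over 11 intronic cytosines, and the Tgfbr3 body at 68.8 ± 2.53% and 68.6 ± 1.33% over 60. The bodies of Tgfb1, Tgfb2, Ltbp1 and Ltbp3 lay between 21.2% and 34.6% in both weeks, and their means differed by less than 1 point when sites weighed equally. With reads pooled instead, the differences were 3.66 points for Tgfb1, 0.986 for Tgfb2, -2.93 for Ltbp1 and 0.889 for Ltbp3, and at sites of at least 20 reads they were 4.51, 1.40, -3.96 and 0.103 points (adjusted p from 0.764 to 0.994, logistic model). The Tgfbr1 and Tgfbr2 bodies were at 38.3 ± 1.09% and 39.5 ± 0.51% and at 35.2 ± 1.98% and 32.9 ± 0.98%. The Tgfb3 body rests on 4 cytosines, at 26.3 ± 1.33% and 22.8 ± 6.54%. Pooled reads turned the direction for Tgfb1 (from -0.08 points) and Tgfb2 (from -0.63 points). They also turned it for Tgfbr2 (to 2.71 points) and Tgfb3 (to 4.56 points), and gave 5.42 points for Tgfbr1.

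Intronic cytosines of Tgfb1 and Tgfb2 had wide gaps between the weeks, without overlap, and their surroundings are given as examples. Capitals mark the CpG, in GRCm38, for Tgfb1 at chr7:25698817-25698878 on the plus strand and for Tgfb2 at chr1:186675370-186675431 on the minus strand.
Tgfb1 intron: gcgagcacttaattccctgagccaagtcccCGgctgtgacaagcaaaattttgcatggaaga
Tgfb2 intron: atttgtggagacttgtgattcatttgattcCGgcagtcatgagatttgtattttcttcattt

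The Tgfb1 cytosine was at 48.1%, 78.0% and 69.2% at Week 1 (27, 50 and 26 reads) and at 81.0%, 100% and 100% at Week 3 (21, 38 and 26 reads). The Tgfb2 cytosine was at 41.1%, 49.2% and 56.3% at Week 1 (56, 65 and 16 reads) and at 32.0%, 5.0% and 26.1% at Week 3 (25, 20 and 23 reads). An intronic Ltbp3 cytosine at chromosome 19, base 5751332, was at 11.3%, 21.1% and 25% at Week 1 (71, 71 and 20 reads) and at 26.7%, 80.0% and 57.1% at Week 3 (30, 35 and 14 reads). The differences were 28.5, -27.8 and 35.5 points with unadjusted p of 0.0129, 0.0188 and 0.00536, and each had an adjusted p of 0.86 (logistic model). They were each the site with the smallest p of their gene, so they were picked for their difference. Of the 10 such sites, 1 per member, 4 were higher and 6 lower at Week 3. The weeks also did not overlap at those of Ltbp1, Tgfbr1 and Tgfbr2, and the share of all sites without overlap was not counted.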

How the data were processed

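RNA-seq and ERRBS were measured in 6 libraries each. The authors deposited raw counts per RefSeq transcript and, per the file headers, coverage and the percent of reads with C or T at each CpG cytosine. CASAVA 2.17, STAR, featureCounts, Bismark and mm10 come from the submitters' processing notes. For the strand setting and the versions of STAR, featureCounts and Bismark: not given in the sources used here. From 30048 accessions came 23575 genes, 394 of them accessions without a symbol, each gene taking its transcript with the highest total count. Genes were tested with edgeR 4.0.16 in R 4.3.3 (TMM, filterByExpr, robust quasi-likelihood F test, Benjamini-Hochberg, threshold 0.05). CPM is TMM-scaled, and SE is the log2 change over the square root of F. The alternatives were DESeq2 1.42.0, RLE normalisation, no filter, the mean of transcripts, a 1.5-fold threshold, a replicate block, and leaving out libraries.

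For ERRBS, cytosines listed in all 6 deposited tables (at least 10 reads each) were used, with at least 3 per region. Each library's mean percent, weighted by its effective number of reads, entered a quasi-binomial logistic model, with the dispersion moderated by limma 3.58.1 and not allowed under 1. Coverages of 20 and above, pooled reads, a shorter promoter, the block and leaving out libraries were the alternatives. Reads are not independent molecules, nor are cytosines on the same read, so limits cover counting error only. Both tests were tried on simulated data with known changes.

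Replicate numbers are shared between weeks. Deviations of same-numbered RNA libraries correlated at 0.259, 0.376 and 0.194, each the highest value for its Week 1 library. No label states a pairing, and whether the numbers pair the RNA libraries was not tested. The main fit held the week only and left a possible pairing out. With the replicate block 8 members and 6306 of all 14323 tested genes were called. Genes named beside the members were, per list, up to 4 with the smallest adjusted p, target genes set beside a member, and 3 per likeness. For CpG sites it was the one with the smallest p in a member. Members and lists were chosen with earlier results of these data known. Some genes that the rule selects are left out of the text.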

Additional observations from a re-analysis of the deposited data

How the results depend on the processing

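The count of members called was 7 with RLE normalisation, DESeq2, no filter or the mean of transcripts, and 8 with the replicate block, which added Tgfbr2 and changed no other member's call. Against a 1.5-fold threshold (glmTreat) it was 2, Tgfb3 and Ltbp2. Leaving out libraries gave 6 to 7, and leaving out replicate 2 of both weeks, chosen after seeing the data, gave 7. The count of 36 pathway genes ran from 26 to 36 with a library left out, was 43 without replicate 2 of both weeks, 33 with DESeq2, 32 with no filter (Fmod, Aspn and Tab1 among those lost) and 46 with the block. Ltbp3, near 0 throughout, changed sign, with a log2 change of 0.000178 with RLE, 0.000399 with DESeq2 and 0.0169 with the block, and from -0.18 to 0.16 with a library left out, and was above 0 when Week 1 replicate 1 (0.16) or 3 (0.03), or Week 3 replicate 2 (0.10), was left out. With a library left out the log2 change of Ccn2 ran from -0.0599 (Week 1 replicate 2) to 0.26 (Week 3 replicate 2). Over 36 log2 changes, 404 of 442 alternative values kept direction and side of the threshold.

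No member promoter, gene body or site was called under any alternative. Over the genome, alternatives called 0 promoters, at most 1 gene body (pooled reads) and at most 28 sites (without Week 3 replicate 2). Same-numbered ERRBS libraries correlated at 0.0200, 0.0364 and 0.0127, each the highest value for its Week 1 library but small. Values of this size do not decide whether the numbers pair them. The block there also called 0. The Ltbp2 body difference ran from -3.50 to -0.576 points. Body differences depended on whether sites or reads weighed equally, with Tgfb1 at -0.08 and 3.66 points, Tgfb2 at -0.63 and 0.986, Tgfb3 at -3.48 and 4.56 and Tgfbr2 at -2.38 and 2.71, none called either way.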
